A study of Mus musculus with 6 samples.

Results

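The genes described here are 10 chains of cytokine receptors that thymocytes are known to use: Il7r, Il4ra, Il21r, Il2ra, Il2rg, Il6ra, Il6st, Ifngr1, Ifngr2 and Il17rb. They were taken by exact gene symbol from the deposited table of 41386 genes, where each symbol had a single row. RNA of DN4 thymocytes from adult C57BL/6 mice was sequenced after depletion of ribosomal RNA, in 2 groups of 3 libraries each. GFP-positive DN4 cells were compared with GFP-negative DN4 cells. Both groups share the genotype labelled Gata3(g/+), in which a GFP allele of Gata3 stands over a wild-type allele, and both were drawn from the same stage, so the sort on GFP is the difference between them. The labels give neither the number of mice behind a library nor the surface gates of the DN4 sort, and nothing in them says that replicate libraries are from different mice. P-values therefore reflect library-to-library spread alone, part or all of which can be technical.

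DN4 cells are double-negative thymocytes past beta selection, the step that tests the T cell receptor beta chain, on their way to becoming double-positive for CD4 and CD8. Except for Il17rb, of the IL-17 receptor family, these are chains of receptors that have no kinase of their own and signal through Janus kinases. The ligand brings chains together, Janus kinases bound to the chains become active, and STAT transcription factors are phosphorylated and enter the nucleus. In the thymus the best known of these receptors is the IL-7 receptor, built from Il7r and the common gamma chain Il2rg. It keeps early double-negative cells alive and opens the T cell receptor gamma locus through STAT5. It is shut off in double-positive cells before it returns in mature thymocytes. The common gamma chain is also shared by the receptors for IL-2, IL-4 and IL-21, while Il6st, called gp130, is shared by the receptors of the IL-6 family.

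The 250 bases before the RefSeq start of 4 of these genes (build GRCm38.p6, of which mm10 is the browser name) are shown because their transcripts moved most or in opposite directions. They are Il7r, which rose, Il2rg, its partner, which fell, and Il4ra and Il21r, neighbours on chromosome 7 that fell together. Capitals mark matches on either strand. For ETS factors the letters searched were CGGAAG and also AGGAAG. For GATA factors they were AGATAA and also AGATAG, besides TGATAA and also TGATAG. For STAT factors they were TTCNNNGAA. The Il7r window is chr15:9529877-9530126 and the Il2rg window chrX:101268256-101268505, both on the minus strand. The Il4ra window is chr7:125552021-125552270 and the Il21r window chr7:125603179-125603428, both on the plus strand.
Il7r: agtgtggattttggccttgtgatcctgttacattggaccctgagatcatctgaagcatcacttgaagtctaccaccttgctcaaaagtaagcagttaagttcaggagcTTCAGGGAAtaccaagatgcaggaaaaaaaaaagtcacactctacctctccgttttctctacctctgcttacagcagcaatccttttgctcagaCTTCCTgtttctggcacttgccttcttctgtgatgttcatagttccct
Il2rg: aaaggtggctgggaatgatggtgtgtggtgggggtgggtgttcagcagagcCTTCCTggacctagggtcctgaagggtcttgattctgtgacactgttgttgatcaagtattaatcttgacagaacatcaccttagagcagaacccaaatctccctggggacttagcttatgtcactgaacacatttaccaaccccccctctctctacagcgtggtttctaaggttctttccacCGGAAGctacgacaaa
Il4ra: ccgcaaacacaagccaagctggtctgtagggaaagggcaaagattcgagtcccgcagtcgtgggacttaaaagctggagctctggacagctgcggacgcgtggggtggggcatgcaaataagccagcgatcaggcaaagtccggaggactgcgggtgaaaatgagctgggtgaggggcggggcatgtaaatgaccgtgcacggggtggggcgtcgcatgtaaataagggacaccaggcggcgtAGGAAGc
Il21r: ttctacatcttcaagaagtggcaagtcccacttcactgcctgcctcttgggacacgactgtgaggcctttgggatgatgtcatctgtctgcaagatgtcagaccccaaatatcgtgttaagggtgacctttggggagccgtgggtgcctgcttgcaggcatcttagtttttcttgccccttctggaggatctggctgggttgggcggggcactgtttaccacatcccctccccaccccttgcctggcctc
No 2 matches overlapped in these windows. The Il7r window held the STAT letters TTCAGGGAA, 142 to 134 bases before the start, and ETS letters 48 to 43 bases before it. The ETS factor GABP is known to bind an ETS motif of the Il7r promoter. The Il2rg window held ETS letters 16 to 11 bases before the start and again 199 to 194 bases before it, and the Il4ra window held them 7 to 2 bases before its start. The Il21r window held none of the 3 motifs. These distances are from RefSeq starts. GENCODE M21 starts Il7r at 9530176 and Il4ra at 125552120. By those starts the Il7r window lies wholly, and the Il4ra window partly, inside the gene. Of all 32851 RefSeq windows of this length, 39.2% held the ETS letters, 26.5% the GATA letters and 7.02% the STAT letters. Among the windows of all 10 genes, GATA letters were found in that of Il6ra alone. GC content varied among the windows. Il2ra (42.4%), Il7r (44.0%) and Il2rg (49.2%) lay below the median of all windows (52.4%), and Il21r (55.6%) lay closest above it. Ifngr2 (74.0%) and Il17rb (72.0%) lay above 93.1% of all windows or more.

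Expression was deposited as FPKM, a read measure divided by gene length and by library size, which can be compared between genes. The absolute depth is unknown. From the step between low values, relative depth was 0.861 to 1.22 for GFP-positive libraries and 1 to 1.28 for GFP-negative libraries, with GFP-negative library 1 as the unit. T lineage genes were high in every library (summed FPKM of 8 markers 1543 to 1586 in GFP-positive and 2077 to 2541 in GFP-negative cells), and Pax5, Foxn1, Krt5 and Siglech, which mark B, epithelial and dendritic cells, were listed at 0 in all 6 libraries. Other markers of those cells were not at 0. The 6 B cell markers summed to 2.24 to 3.60 FPKM in GFP-positive and 7.10 to 9.71 FPKM in GFP-negative libraries, most of it from Cd79b, which fell (log2 fold change -1.41, limma adjusted p = 0.000791). The 7 myeloid and dendritic markers summed to 23.4 to 25.1 FPKM in GFP-positive and 27.5 to 36.5 FPKM in GFP-negative libraries, most of it from Cst3, and among them Itgam averaged 0.0266 FPKM in GFP-positive and 1.88 FPKM in GFP-negative cells. The 6 epithelial markers summed to 1.97 to 3.23 FPKM in GFP-positive and 2.51 to 3.14 FPKM in GFP-negative libraries, most of it from Epcam. Coreceptor genes, whose proteins double-negative cells lack at the surface, were not at 0: Cd4 measured 6.13 to 10.3 FPKM in GFP-positive and 190 to 256 FPKM in GFP-negative libraries. The 7 markers of double-positive cells summed to 327 to 366 FPKM in GFP-positive and 2186 to 3285 FPKM in GFP-negative libraries, and the 7 of 8 gamma-delta T cell markers that were matched to 137 to 140 FPKM in GFP-positive and 17.7 to 48.9 FPKM in GFP-negative libraries. These sums move with the receptor results below, and their part in them was not tested. In bulk RNA, fewer cells of a type and less RNA per cell cannot be told apart.

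Of the 10 receptor genes, 2 rose in GFP-positive cells (Il7r and Il17rb), 6 fell (Il4ra, Il21r, Il2rg, Il6st, Ifngr1 and Ifngr2), and Il2ra did not pass the test. Il6ra stayed below the minimum mean of 1 FPKM and was not tested. The test was limma on log2(FPKM + 0.5) over all 11465 genes that reached that mean, with an adjusted p threshold of 0.05, and each of the 9 tested receptor genes had a mean of at least 1 FPKM in both groups. Over all genes the same test called 54.2%, with 24.4% higher and 29.8% lower in GFP-positive cells, so a call by itself is common in this comparison. The libraries of the groups did not overlap for 8 of the 10 receptor genes (6 lower and 2 higher) and for 63.8% of all genes tested (35.1% lower and 28.7% higher). In plain FPKM, Il7r and 4 of those that fell moved by at least 2-fold. On the log2(FPKM + 0.5) scale 1 of these 4, Ifngr2, fell short of that size (log2 fold change -0.96). On that scale 21.5% of all genes reached 2-fold with a call. In the authors' deposited table the same 8 genes had a q under 0.05, as did 49.3% of the genes it tested. The median log2 fold change was -0.88 over the 9 receptor genes and -0.08 over all genes tested. Quantile normalization raised that median of all genes by 0.13 and turned the split of all calls to 3494 higher and 2846 lower, against 2797 higher and 3419 lower here. The 2 higher and 6 lower receptor genes kept their calls under it.

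**Figure D1:**
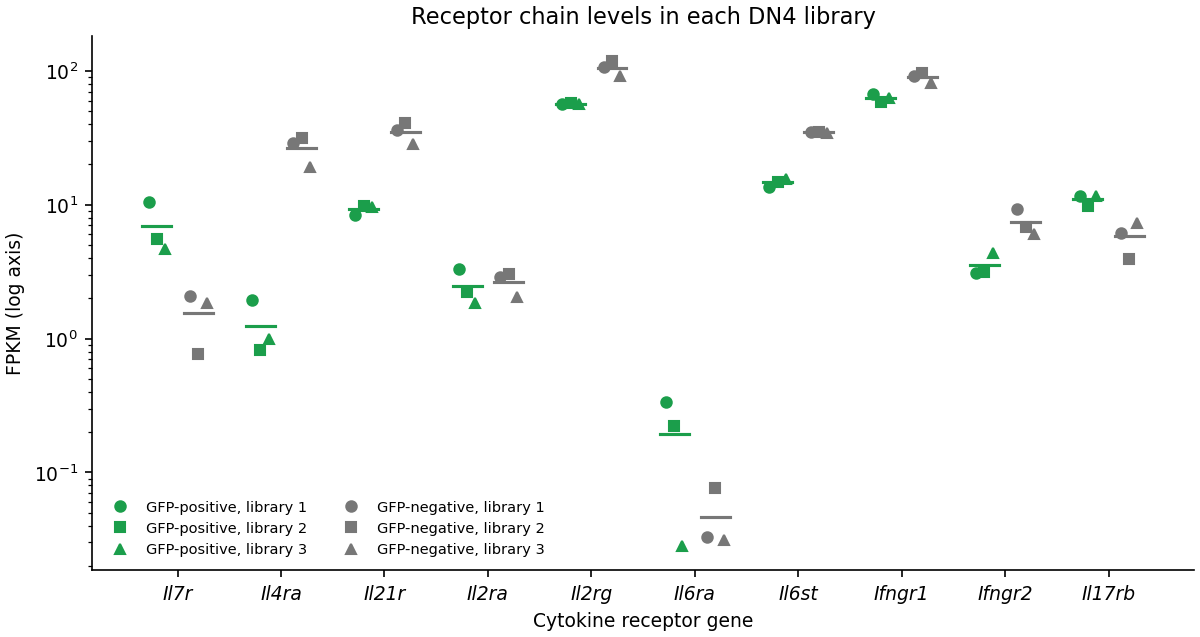
FPKM of the 10 receptor genes on a log axis, with a point for each library (circle, square and triangle for libraries 1, 2 and 3), GFP-positive in green left of GFP-negative in grey, and a line at each group's mean. Il7r and Il17rb lie higher in all 3 GFP-positive libraries, Il4ra, Il21r, Il2rg, Il6st, Ifngr1 and Ifngr2 lower in all 3, and Il2ra and Il6ra overlap.

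Il7r encodes the alpha chain of the IL-7 receptor, which is also used by thymic stromal lymphopoietin together with Crlf2. Its level was 10.5, 5.57 and 4.70 FPKM in GFP-positive libraries 1 to 3, against 2.08, 0.766 and 1.84 FPKM in GFP-negative libraries 1 to 3. Every GFP-positive library lay above every GFP-negative one, with GFP-positive library 1 well above the other GFP-positive libraries. The means were 6.93 ± 3.15 FPKM in GFP-positive and 1.56 ± 0.701 FPKM in GFP-negative cells (SD, n = 3 each), 4.44-fold higher in GFP-positive cells, and the log2 fold change was 1.84 ± 0.35 (SE; limma, adjusted p = 0.0027). The 8 markers of NKT and innate lymphoid cells, 1 of them Il2rb, summed to 10.7, 1.84 and 1.53 FPKM in GFP-positive libraries, against 4.39, 0.587 and 1.63 FPKM in GFP-negative libraries, and their part in the level of Il7r was not tested. Without GFP-positive library 1 the log2 fold change of Il7r was 1.51 (limma, adjusted p = 0.00843).

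Il4ra encodes the chain that binds IL-4 and signals to STAT6, and it had the largest change of the 10. It measured 1.94, 0.816 and 0.995 FPKM in GFP-positive libraries, against 28.9, 31.5 and 19.3 FPKM in GFP-negative libraries. The groups were far apart, and GFP-negative library 3 was the lowest of its group. The level was 21.2-fold lower in GFP-positive cells (log2 fold change -3.97 ± 0.27 SE; limma, adjusted p = 1.89e-05). GENCODE M21 places an antisense gene, Gm44876, over 571 of the 6002 exonic bases of Il4ra. No value was available for Gm44876, and the sources do not state whether reads were counted by strand. Il13ra1, the partner with which Il4ra forms the other type of IL-4 receptor, was listed at 0 in 5 libraries and at 0.03 FPKM in GFP-positive library 3.

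Il21r, the chain that binds IL-21, moved in the same direction. It had 8.38, 9.71 and 9.66 FPKM in GFP-positive libraries, against 36.2, 40.6 and 28.6 FPKM in GFP-negative libraries. Here too no library crossed over and GFP-negative library 3 was the lowest of its group. The level was 3.80-fold lower in GFP-positive cells (log2 fold change -1.86 ± 0.15 SE; limma, adjusted p = 3.58e-05).

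Il2rg, the common gamma chain, was the highest of the 10 in GFP-negative cells and fell to 56.6, 57.2 and 57.0 FPKM in GFP-positive libraries, against 106, 120 and 90.9 FPKM in GFP-negative libraries. The GFP-positive libraries lay within 1 FPKM of each other. The level was 1.86-fold lower in GFP-positive cells (log2 fold change -0.88 ± 0.12 SE; limma, adjusted p = 0.000576). GENCODE M21 places a read-through gene, Gm20489, over 728 bases of Il2rg exons on the same strand, and it was listed at 0 in all libraries.

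Il2ra encodes CD25, the alpha chain that raises the affinity for IL-2 and whose loss from the surface marks the passage from DN3 to DN4. It was low and alike in range, at 3.33, 2.25 and 1.86 FPKM in GFP-positive libraries, against 2.91, 3.02 and 2.06 FPKM in GFP-negative libraries. The groups overlapped (log2 fold change -0.10 ± 0.24 SE; limma, adjusted p = 0.743), and the sign turned to 0.18 with quantile normalization and to 0.05 without GFP-positive library 3. CD25 is commonly used to gate DN4 cells, and the gates of this sort are unknown. The third chain of the IL-2 receptor, Il2rb, which is also the IL-15 receptor beta chain, measured 6.32, 0.719 and 0.592 FPKM in GFP-positive libraries, against 3.15, 0.158 and 0.863 FPKM in GFP-negative libraries. Library 1 of both groups held the highest value, and Il2rb did not pass the test (limma, adjusted p = 0.679). In the authors' deposited table of 6 libraries its q was 0.00597.

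Il6st, or gp130, carries the signal of IL-6 and its relatives to STAT3. It measured 13.6, 14.8 and 15.6 FPKM in GFP-positive libraries, against 35.0, 35.2 and 34.6 FPKM in GFP-negative libraries. Both groups were tight, and the level was 2.38-fold lower in GFP-positive cells (log2 fold change -1.23 ± 0.11 SE; limma, adjusted p = 5.84e-05). Il6ra, the chain that binds IL-6 itself, was barely measured, at 0.334, 0.222 and 0.0285 FPKM in GFP-positive libraries, against 0.0331, 0.0760 and 0.0312 FPKM in GFP-negative libraries. GFP-positive library 3 lay below all 3 GFP-negative ones and the other GFP-positive libraries above them, so the groups overlapped, and the authors' deposited table carried the status NOTEST for this gene. With no minimum level, limma gave Il6ra a value of 0.32 ± 0.18 for this fold change (SE, adjusted p = 0.221).

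The IFN-gamma receptor is made of Ifngr1, which binds the ligand, and Ifngr2, which is needed for the signal. Ifngr1 was the highest of the 10 in GFP-positive cells, at 67.7, 58.4 and 62.4 FPKM, against 90.9, 96.7 and 81.5 FPKM in GFP-negative libraries. It had the smallest of the 6 decreases, 1.43-fold lower in GFP-positive cells (log2 fold change -0.51 ± 0.12 SE; limma, adjusted p = 0.00567). Ifngr2 measured 3.09, 3.15 and 4.39 FPKM in GFP-positive libraries, against 9.37, 6.77 and 6.05 FPKM in GFP-negative libraries. It was 2.09-fold lower in GFP-positive cells (log2 fold change -0.96 ± 0.21 SE; limma, adjusted p = 0.00417). For Ifngr2 the q was 0.00201 in the authors' deposited table of 6 libraries. It was 0.0619 in the authors' deposited table of 4 libraries, made by a separate run without library 1 of each group. For that table limma gave Ifngr2 a log2 fold change of -0.80 (adjusted p = 0.0367).

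Il17rb, the chain that binds IL-25, was the other gene that rose, at 11.7, 9.84 and 11.7 FPKM in GFP-positive libraries, against 6.10, 3.95 and 7.37 FPKM in GFP-negative libraries. The groups did not overlap, and GFP-negative library 3 was the nearest to the GFP-positive ones. The level was 1.91-fold higher in GFP-positive cells (log2 fold change 0.91 ± 0.21 SE; limma, adjusted p = 0.00586). In the 4-library table the log2 fold change was 0.89 and the call was lost (limma, adjusted p = 0.0531). The authors' q in that table was 0.00034. In the 6-library table the same 4 libraries gave 0.92 (limma, adjusted p = 0.0384). Exons of Il17rb overlap those of Actr8 on the opposite strand by 141 bases, of 3707 in all, and the sources do not state whether reads were counted by strand. Actr8 averaged 9.64 FPKM in GFP-positive and 12.7 FPKM in GFP-negative cells.

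The order of the levels changed between the groups. In GFP-positive cells it ran Ifngr1, Il2rg, Il6st, Il17rb, Il21r, Il7r, Ifngr2, Il2ra, Il4ra and Il6ra. The library ranges of the neighbours Il21r and Il7r, Ifngr2 and Il2ra, and Il2ra and Il4ra overlapped. In GFP-negative cells it ran Il2rg, Ifngr1, Il21r, Il6st, Il4ra, Ifngr2, Il17rb, Il2ra, Il7r and Il6ra, with overlap between Il2rg and Ifngr1, Il21r and Il6st, Ifngr2 and Il17rb, and Il2ra and Il7r. Il4ra thus held rank 9 in GFP-positive and rank 5 in GFP-negative cells, and Il7r rank 6 in GFP-positive and rank 9 in GFP-negative cells. Set against all genes tested, Il4ra lay above 9.04% of them in GFP-positive and above 79.7% in GFP-negative cells, and Il7r above 42.6% in GFP-positive and 7.12% in GFP-negative cells. Within groups, GFP-negative library 3 held the lowest GFP-negative value for 8 of the 10 genes, among them all 6 that fell. The share of all genes lowest in that library was not counted, so this is not shown to be particular to receptors. The double-positive markers summed to 2573, 3285 and 2186 FPKM in GFP-negative libraries 1 to 3. The gamma-delta markers summed to 17.7, 17.8 and 48.9 FPKM there, so library 3 was nearest the GFP-positive libraries in both.

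Chains that work in the same receptor were then set against each other within each library, as the log2 ratio of (FPKM + 0.5), which asks whether they changed unequally. In 6 of 7 pairs the ratios of the groups did not overlap. The two-sided exact permutation test of 3 against 3 libraries cannot go below p = 0.10, which these 6 pairs reached (adjusted p = 0.117 over the 7), so none could pass 0.05. For Il7r over Il2rg the log2 ratio was -3.03 ± 0.58 in GFP-positive and -5.74 ± 0.71 in GFP-negative libraries (SD, n = 3 each), a difference of 2.71. As plain FPKM, Il7r amounted to 0.186, 0.0973 and 0.0825 of Il2rg in GFP-positive libraries, against 0.0196, 0.00641 and 0.0202 in GFP-negative libraries. In both groups, therefore, the transcript of the shared chain was far above that of the IL-7-specific one.

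The IL-4 pair went the other way. Il4ra amounted to 0.0342, 0.0143 and 0.0175 of Il2rg in GFP-positive libraries, against 0.271, 0.263 and 0.212 in GFP-negative libraries, and the log2 ratio differed by -3.10. For Il21r over Il2rg the difference was -0.98. For Il2ra over Il2rg it was 0.77, since Il2rg fell while Il2ra kept its range. For Il17rb over Il17ra, the signalling chain of the IL-25 receptor, the log2 ratio was -0.84 ± 0.15 in GFP-positive and -3.04 ± 0.53 in GFP-negative libraries (SD, n = 3 each), a difference of 2.19. Il6ra over Il6st differed by 1.55 on this scale, but Il6ra lies below the pseudocount, and the plain FPKM ratios overlapped, at 0.00182 to 0.0246 in GFP-positive and 0.000902 to 0.00216 in GFP-negative libraries. Ifngr1 over Ifngr2 was the pair whose groups overlapped, with a difference of 0.45 (exact permutation p = 0.20, adjusted p = 0.20).

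**Figure D2:**
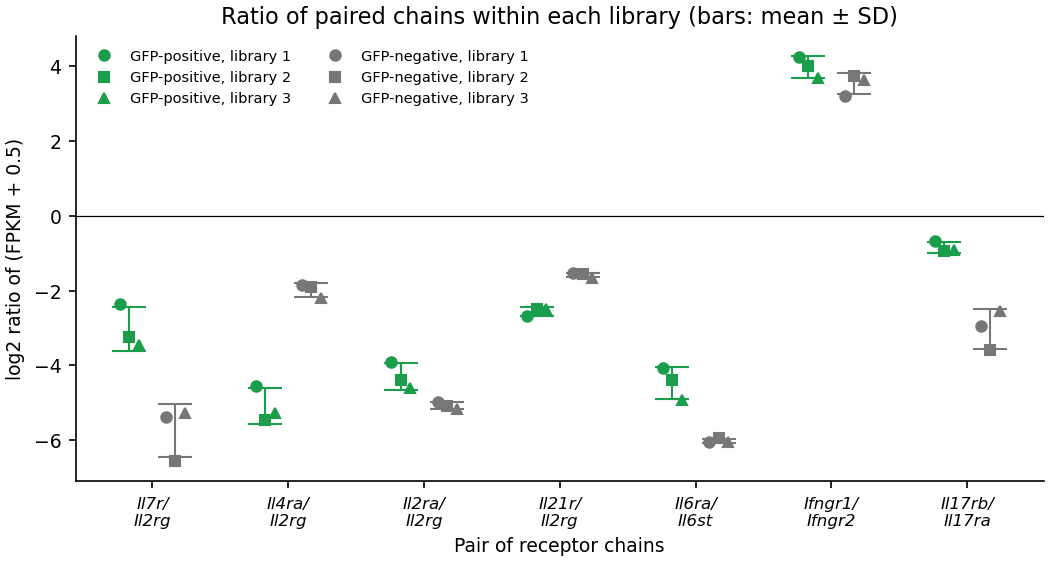
Log2 ratio of (FPKM + 0.5) for 7 pairs of receptor chains, with a point for each library, GFP-positive in green left of GFP-negative in grey, and bars at the mean ± SD of 3 libraries. Il7r/Il2rg and Il17rb/Il17ra lie higher and Il4ra/Il2rg and Il21r/Il2rg lower in all GFP-positive libraries, while Ifngr1/Ifngr2 overlaps.

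The 10 genes sit in larger families, and 59 receptor genes in 8 lists, the 10 included, were read in the same fit. Of 34 that reached the minimum mean, 6 rose and 18 fell in GFP-positive cells, with a median log2 fold change of -0.55. Over all genes tested 24.4% rose and 29.8% fell, and the counts of single families and lists below stand beside these shares. With quantile normalization the split of the 24 calls was 9 higher and 15 lower. Without the 10, 4 of 25 rose and 12 fell, with a median of -0.53, beside -0.08 over all genes. In the common gamma chain family Il9r, the IL-9 receptor chain, rose with Il7r, at 4.12 ± 0.692 FPKM in GFP-positive and 0.948 ± 0.719 FPKM in GFP-negative cells (SD, n = 3 each; log2 fold change 1.79, limma adjusted p = 0.0028). Il15ra, the IL-15 receptor alpha chain, passed the test narrowly (log2 fold change -0.81, limma adjusted p = 0.0392). Its call was lost under 8 of 16 alternatives, among them quantile normalization (-0.45, limma adjusted p = 0.20) and leaving out GFP-positive library 1 or 2 or GFP-negative library 2 or 3 (limma adjusted p = 0.077 to 0.122). Crlf2 did not pass the test (log2 fold change 0.61, limma adjusted p = 0.0569).

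Among receptors of the IL-6 and IL-12 families 1 of 5 tested genes rose and 3 fell. Il12rb2, the IL-12 receptor chain that carries the signal to STAT4, measured 16.2, 15.6 and 16.9 FPKM in GFP-positive libraries, against 4.37, 4.92 and 7.45 FPKM in GFP-negative libraries (log2 fold change 1.49, limma adjusted p = 0.000332). Il12rb1, which it pairs with, passed the test narrowly (log2 fold change -0.56, limma adjusted p = 0.0368). Its call was lost under 8 of 16 alternatives, among them quantile normalization (-0.35, limma adjusted p = 0.20) and leaving out GFP-positive library 2 or 3 or GFP-negative library 1 or 2 (limma adjusted p = 0.0709 to 0.116). Il11ra1, the IL-11 receptor chain that signals through gp130, fell with Il6st (log2 fold change -1.84), and Il27ra did not pass the test (0.08).

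Among the interferon and IL-10 receptors 1 of 7 tested genes rose and 4 fell. Ifnar1 and Ifnar2 are the chains of the type I interferon receptor. Ifnar1 measured 11.4, 11.7 and 12.8 FPKM in GFP-positive libraries, against 23.3, 26.7 and 21.8 FPKM in GFP-negative libraries (log2 fold change -0.97, limma adjusted p = 0.000361). Ifnar2 measured 13.98, 17.02 and 19.4 FPKM in GFP-positive libraries, against 10.3, 12.7 and 12.5 FPKM in GFP-negative libraries (log2 fold change 0.48, limma adjusted p = 0.026). This single rise of the list was lost with no minimum level (limma adjusted p = 0.0534) and without GFP-positive library 2 (0.46, limma adjusted p = 0.076), GFP-positive library 3 (0.37, limma adjusted p = 0.103) or GFP-negative library 1 (0.39, limma adjusted p = 0.0744). In the authors' deposited table its q was 0.0951. Il10ra, the chain that binds IL-10, fell (log2 fold change -1.25), and its partner Il10rb did not pass the test (-0.09).

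In the IL-17 receptor family Il17rb was the only riser of 3 tested genes, while Il17ra and Il17re fell (log2 fold changes -1.28 and -1.48). Il17ra, shared by most receptors of the family, measured 18.9, 19.3 and 22.4 FPKM in GFP-positive libraries, against 50.9, 53.5 and 45.4 FPKM in GFP-negative libraries. Of 3 tested IL-1 family receptors 2 fell, Il1rl2 of the IL-36 receptor (log2 fold change -1.67) and the inhibitory Sigirr (-0.86, limma adjusted p = 0.0156). The call of Sigirr was lost without GFP-positive library 2 (-0.68, limma adjusted p = 0.0576), without GFP-negative library 2 (-0.69, limma adjusted p = 0.0661), in the 4-library table (-0.97, limma adjusted p = 0.062) and with quantile normalization (-0.64, limma adjusted p = 0.0602), which left 1 of the list. Of 5 TGF-beta and TNF receptors 3 fell and 1 rose, with Tnfrsf1a at a log2 fold change of -1.60 and Tnfrsf1b, the other TNF receptor, at 0.52 (limma adjusted p = 0.0251). The call of Tnfrsf1b, the single rise of the list, was lost without GFP-positive library 1 or 2 or GFP-negative library 2 or 3 (limma adjusted p = 0.0544 to 0.0803) and in the 4-library table (limma adjusted p = 0.112). In the common gamma chain family quantile normalization gave 3 genes higher and 3 lower, against 2 higher and 4 lower here. The single tested gene of the beta common family, Il3ra (log2 fold change 0.70, limma adjusted p = 0.142), and Kit, the stem cell factor receptor of the earliest thymocytes (0.82, limma adjusted p = 0.072), did not pass the test, and each was called higher with quantile normalization.

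**Figure D3:**
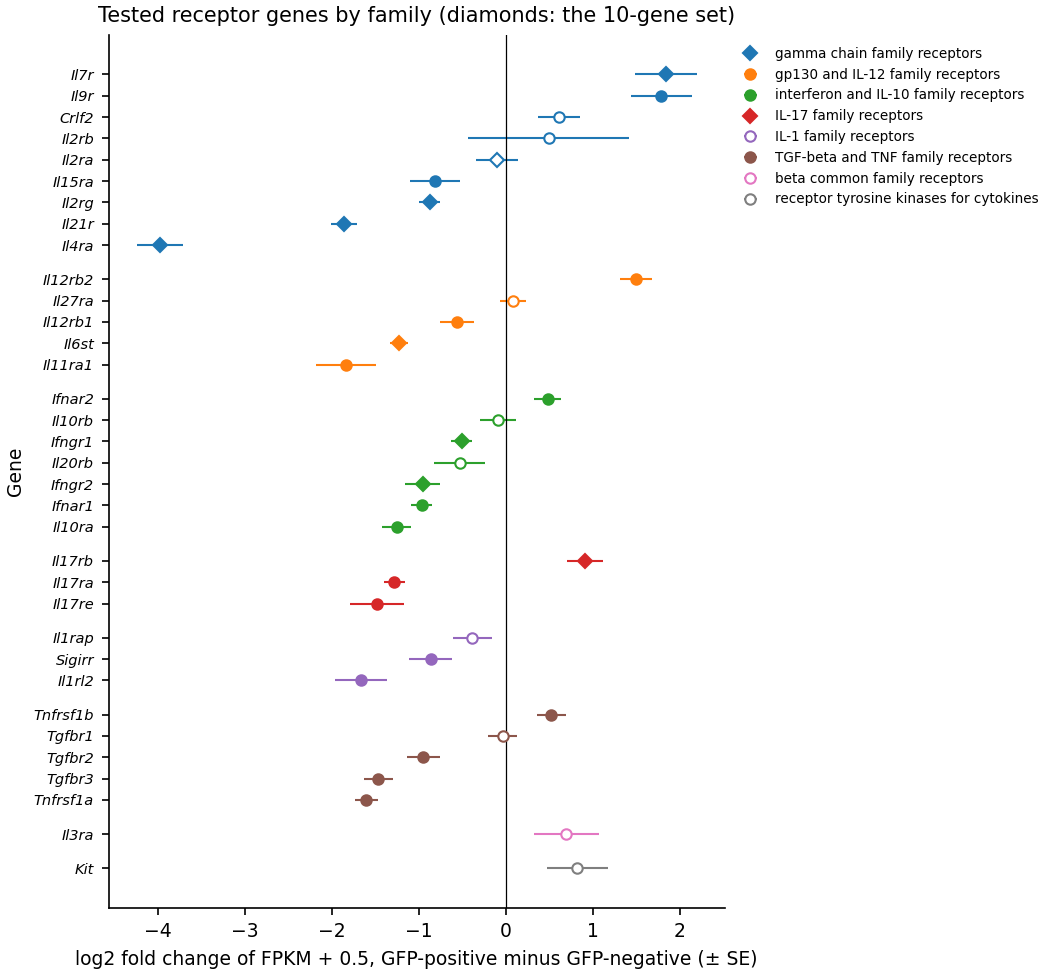
Log2 fold change of FPKM + 0.5 (GFP-positive minus GFP-negative, ± SE, n = 3 each) for the 34 tested receptor genes, grouped and coloured by family, with diamonds for the receptor genes of the 10-gene set, filled points past an adjusted p of 0.05 and open points not. Il7r, Il9r, Il12rb2 and Il17rb lie furthest right among filled points and Il4ra furthest left.

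The kinases and STATs that these chains act through mostly fell: of 11 tested genes 9 fell and 1 rose, with a median log2 fold change of -0.82. Jak1, which binds Il7r, Il4ra, Il21r, Il6st and Ifngr1, measured 34.9, 31.9 and 32.8 FPKM in GFP-positive libraries, against 65.1, 68.3 and 55.5 FPKM in GFP-negative libraries (log2 fold change -0.91, limma adjusted p = 0.000378). Jak3, which binds the common gamma chain, was the riser, at 7.57, 7.53 and 8.35 FPKM in GFP-positive libraries, against 5.60, 4.202 and 5.15 FPKM in GFP-negative libraries (log2 fold change 0.61, limma adjusted p = 0.00898). Jak3 thus rose while its receptor chain Il2rg fell. The largest decreases were those of Stat2 (log2 fold change -1.25), Jak2 (-1.04), Stat4 (-0.93) and Jak1, and Stat6, the factor of Il4ra, had a log2 fold change of -0.73. Among 11 tested inhibitors of cytokine signals 4 fell and 1 rose, no larger a share than the 54.2% called over all genes tested. Socs3, which binds gp130, fell most (log2 fold change -2.56, limma adjusted p = 0.000162), followed by Socs1 (-1.61), the phosphatase CD45 encoded by Ptprc (-1.47) and Pias1 (-0.40), and the phosphatase gene Ptpn2 rose (0.60). The call of Pias1 (limma adjusted p = 0.0211) was lost without GFP-positive library 2 (limma adjusted p = 0.093) and without GFP-negative library 2 (limma adjusted p = 0.072).

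Genes known to respond to IL-7 or STAT5 went both ways, with 5 of 11 tested higher and 4 lower and a median log2 fold change of 0.31. The T cell receptor gamma genes Trgv2, Tcrg-C1 and Tcrg-V1 rose (log2 fold changes 2.51, 2.18 and 2.07), as did the growth regulators Myc (1.91) and Ccnd2 (1.79). The survival gene Mcl1, its antagonist Bcl2l11, Ccnd3 and the kinase gene Pim1 fell (log2 fold changes -1.14, -1.31, -0.82 and -0.65). Bcl2, the best known survival gene of IL-7, measured 6.88, 4.30 and 4.17 FPKM in GFP-positive libraries, against 5.64, 2.87 and 3.66 FPKM in GFP-negative libraries, and did not pass the test (log2 fold change 0.31, limma adjusted p = 0.341). Cish, a direct STAT5 target, was at most 0.16 FPKM in any library. Of these gamma genes, Tcrg-C1 also stands in the gamma-delta marker list, so this list is not fully separate from it.

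Of 11 tested genes known to regulate Il7r, 2 rose, 4 fell and 5 did not pass the test. That is about the share called over all genes tested, 54.2%, so the count does not set this list apart. Notch1 rose (log2 fold change 1.09). Runx3 measured 7.24, 4.254 and 3.61 FPKM in GFP-positive libraries, against 3.08, 1.999 and 1.996 FPKM in GFP-negative libraries, with the highest value in GFP-positive library 1 (log2 fold change 0.92, limma adjusted p = 0.0179). Its call was lost without that library (0.65, limma adjusted p = 0.0601) and without GFP-negative library 2 (0.83, limma adjusted p = 0.0648). Foxo1 and Ets1, activators of Il7r in T cells, fell (-0.85 and -0.66), as did Foxo3 (-0.86). Bcl6 had the largest change of the list, with 5.32, 5.02 and 4.77 FPKM in GFP-positive libraries, against 55.5, 62.0 and 46.2 FPKM in GFP-negative libraries (log2 fold change -3.30, limma adjusted p = 2.94e-06). Gabpa, a subunit of the ETS factor GABP, and Gfi1, a repressor of Il7r, did not pass the test (-0.04 and -0.21).

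**Figure D4:**
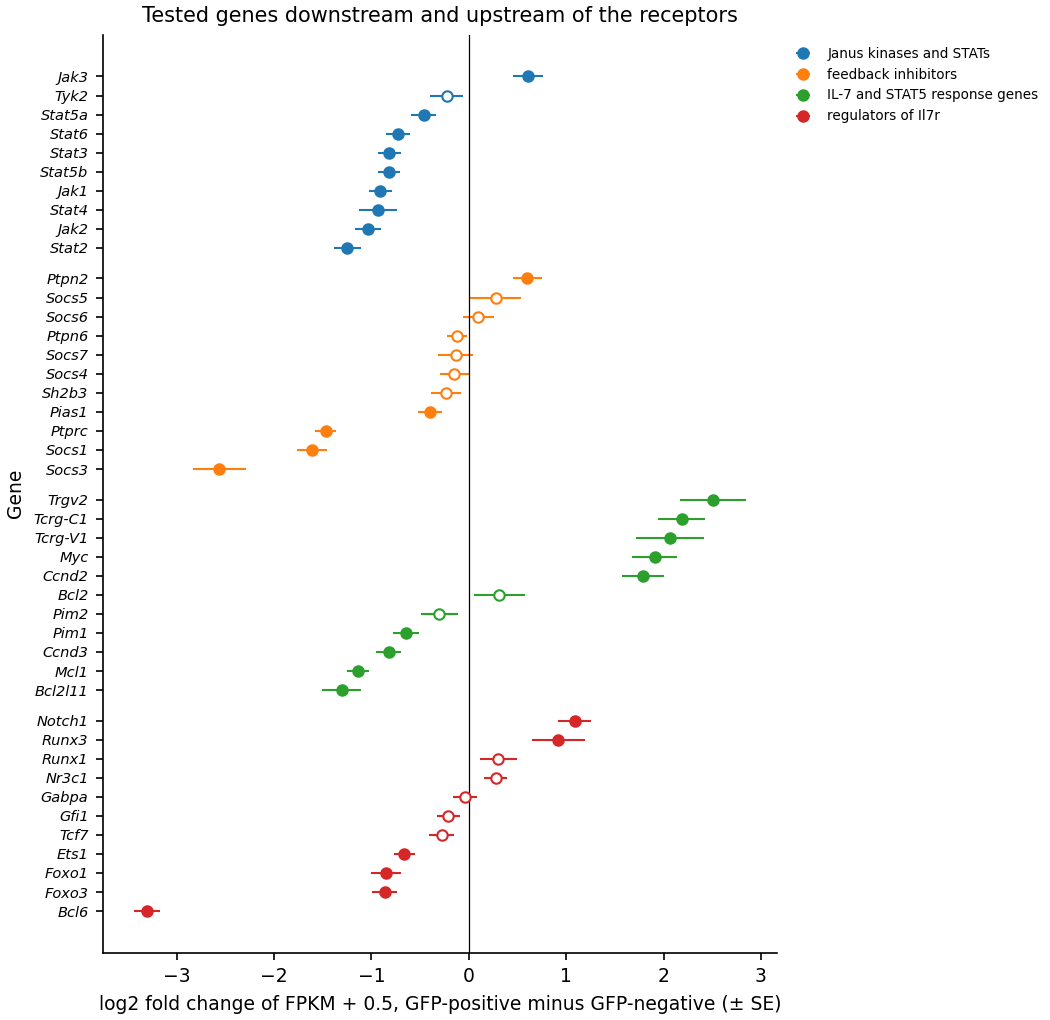
Log2 fold change of FPKM + 0.5 (GFP-positive minus GFP-negative, ± SE, n = 3 each) for tested Janus kinases and STATs (1 of the 11 is not drawn), feedback inhibitors, IL-7 and STAT5 response genes and regulators of Il7r, with filled points past an adjusted p of 0.05. Jak3 is the filled point right of 0 among kinases and STATs, and Bcl6 and Socs3 lie furthest left.

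Some of the 10 genes are neighbours of other receptor genes. In mm10 Il4ra lies at positions 125552120 to 125579474 of chromosome 7, plus strand, and Il21r at 125603429 to 125633570 of the same strand, 24.0 kb further on. Of 6 tested protein-coding genes within 200 kb of the pair, the pair included, 3 fell and 0 rose. These were Il4ra, Il21r and D430042O09Rik, with log2 fold changes of -3.97, -1.86 and -1.61. Beyond the pair itself, D430042O09Rik alone fell, and over all genes tested 29.8% fell and 24.4% rose. Gtf3c1, which lies between Il21r and D430042O09Rik, did not pass the test (log2 fold change -0.29, limma adjusted p = 0.0683), nor did Nsmce1 and Kdm8 before Il4ra (0.21 and 0.36). Ifngr2 ends a row of interferon and IL-10 receptor genes on chromosome 16, in the order Ifnar2, Il10rb, Ifnar1 and Ifngr2. Along that row the log2 fold changes were 0.48, -0.09, -0.97 and -0.96. The next genes included Gart, an enzyme of purine synthesis, which rose (1.48), and Son, which fell (-0.63).

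**Figure D5:**
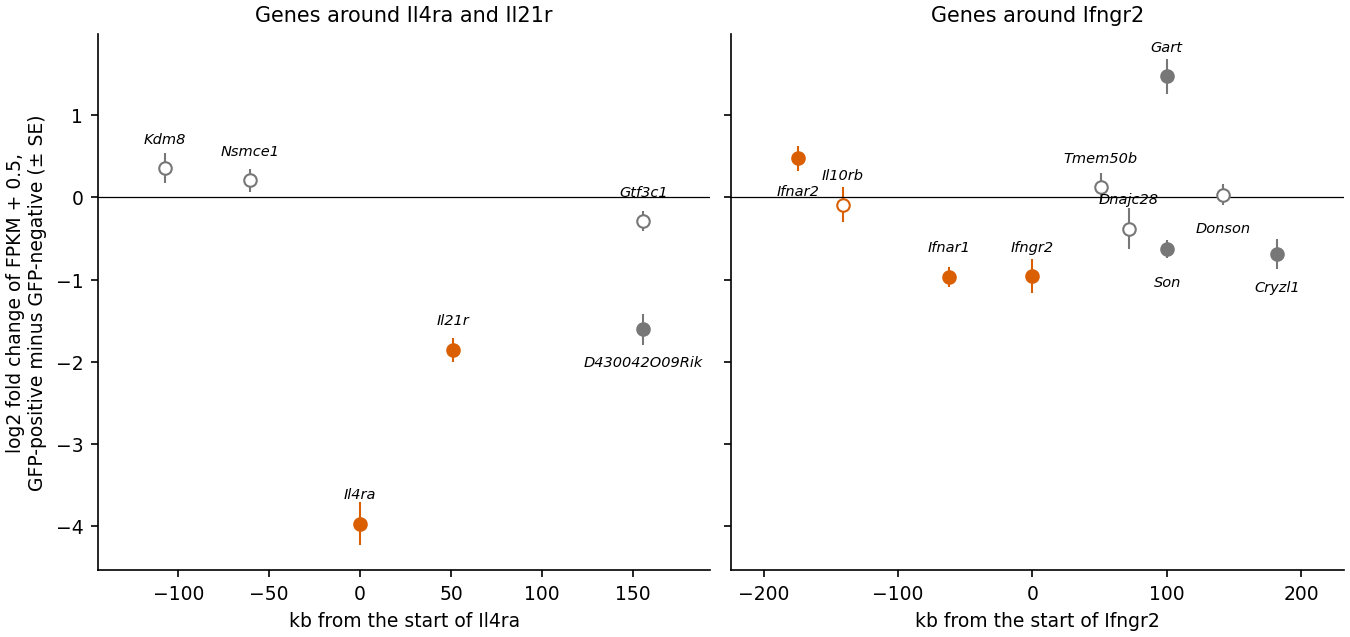
Log2 fold change of FPKM + 0.5 (GFP-positive minus GFP-negative, ± SE, n = 3 each) of tested protein-coding genes against the distance in kb of their start from that of Il4ra (left) or Ifngr2 (right), with receptor genes in orange, other genes in grey and filled points past an adjusted p of 0.05. Il4ra and Il21r fell beside Nsmce1 and Gtf3c1, whose points are open, and Ifnar1 and Ifngr2 fell beside Ifnar2, which lies at 0.48.

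The genes whose levels ran most like those of Il7r and Il4ra across the 6 libraries were found by the mean absolute difference of centred log2(FPKM + 0.5), among 7890 genes with a mean of at least 5 FPKM. For Il7r they were Ccnd2, which encodes cyclin D2 (mean difference 0.22), Gm8995 (0.30), Vkorc1 (0.33), Rrp1b (0.34) and Prdx4 (0.35). Ccnd2 measured 10.4, 7.51 and 8.58 FPKM in GFP-positive libraries, against 2.49, 1.51 and 2.70 FPKM in GFP-negative libraries. Like Il7r, it was highest in GFP-positive library 1 and lowest in GFP-negative library 2. For Il4ra they were Gramd3 (0.05), Hsd11b1 (0.19), Plxnd1, a semaphorin receptor of thymocytes (0.20), Spo11 (0.21) and Smoc1 (0.22). Each of these 5 reached the minimum mean only through the GFP-negative libraries. Gramd3, Hsd11b1 and Smoc1 averaged 0.23, 0.39 and 0.29 FPKM in GFP-positive cells. Those means lie below the pseudocount of 0.5, which largely sets their GFP-positive values here. Plxnd1 measured 4.66, 3.81 and 3.36 FPKM in GFP-positive libraries, against 93.2, 72.3 and 53.5 FPKM in GFP-negative libraries. These likenesses rest mainly on the difference between the groups, which the 6 libraries share.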

How the data were processed

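FPKM were deposited by the authors per library from a run over 6 libraries and another over 4, with the test results (p-value and q-value) of that run. Per the submitters' processing notes the tools were TopHat2 and Cuffdiff and the build mm10, all without versions. The annotation used is not given in the sources. Of the 6-library run, 24 genes with status HIDATA were left out, and 27 symbols turned into dates were replaced by GENCODE names. A value of 0 can be a failed estimate.

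GFP-positive was compared with GFP-negative in R 4.3.3 with limma 3.58.1, its trend and robust options on. Values entered as log2(FPKM + 0.5) where the mean reached 1 FPKM, with Benjamini and Hochberg adjustment over all of them. This scale understates changes of low genes. The procedure was run on simulated data with few changed genes and independent noise. With 54.2% of genes called here, that simulation does not give the rate of false calls in these data. Ratios used an exact permutation test in SciPy 1.17.1. Positions and overlaps come from GENCODE M21, promoter windows from RefSeq GRCm38.p6. FPKM give no counts, so no counting intervals are given. Some genes of the lists are counted but not reported by name here.

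All 10 members were named, with up to 4 genes per list and direction by size of change among those called. Where a list had none, the 2 with the highest mean were to be named, and not every gene the rule names is given. The members, lists and windows around genes were chosen with earlier results of these data known. Alternatives were other pseudocounts, filters and scalings, limma without trend and robust, genes of the authors' status OK, a replicate block, each library left out and 4 libraries.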

Additional observations from a re-analysis of the deposited data

How the results depend on the processing

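The count of receptor genes called among the 10 was 7 or 8 under 17 alternatives, and 8 whichever library was left out. Of 151 values of single receptor genes under the alternatives, 148 kept their direction and their side of the threshold. The exceptions were the call of Il17rb in the 4-library table (log2 fold change 0.89, limma adjusted p = 0.0531) and the sign of Il2ra, at 0.18 with quantile normalization and 0.051 without GFP-positive replicate 3 (-0.30 to 0.05 over the 6 libraries left out). Il7r and Il2ra drop out at a minimum mean of 5 FPKM, where 15 of 17 receptor genes of the 8 lists passed, against 24 of 34, since fewer were tested. Leaving out a library lost the calls of Ifnar2, Il12rb1, Il15ra, Sigirr, Tnfrsf1b, Pias1 and Runx3 in 2 to 4 of 6 cases each, and gave 19 to 23 of the receptor genes and 5052 to 6130 genes in all. The sign of each pair ratio was kept in all 63 alternatives. The labels do not say whether equal replicate numbers pair the libraries. Deviations from the group means correlated at 0.094, -0.021 and 0.061 for numbers 1, 2 and 3. The value for number 1 was the highest of any such pair, but not every library correlated best with its own number. With so few libraries per group, these correlations cannot show or exclude a pairing. The replicate block called 6390 genes, 8 of the 10 and 25 receptor genes of the lists. Without read totals, low genes such as Il6ra, Il4ra in GFP-positive cells and Il7r in GFP-negative cells have an unknown counting error.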

Other observations

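The ligands of these receptors were nearly silent in the sorted cells. Of 20 cytokine genes, 9 were listed at 0 in all 6 libraries, among them Il2, Il4, Il6, Il7 and Il10. Tgfb1, which encodes TGF-beta, was the single ligand that reached the minimum mean, at 24.8, 24.5 and 25.2 FPKM in GFP-positive libraries, against 28.9, 28.3 and 30.8 FPKM in GFP-negative libraries (log2 fold change -0.23, limma adjusted p = 0.0806). Osm, which encodes a ligand of gp130, followed at 0.525, 1.33 and 1.10 FPKM in GFP-positive libraries, against 0.846, 0.459 and 0.521 FPKM in GFP-negative libraries.

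Several receptor genes typical of innate lymphocytes were highest in GFP-positive library 1, an observation made after their values were seen. Il18r1, of the IL-18 receptor, measured 1.83, 0.517 and 0.166 FPKM in GFP-positive libraries, against 0.467, 0.146 and 0.101 FPKM in GFP-negative libraries. Il23r measured 0.570, 0.0483 and 0.0326 FPKM in GFP-positive libraries, against 0.127, 0.0348 and 0 FPKM in GFP-negative libraries. Klrb1c, the NK1.1 receptor gene, measured 1.81, 0 and 0.117 FPKM in GFP-positive libraries, against 0.337, 0.0848 and 0.0776 FPKM in GFP-negative libraries. In both groups library 1 held the highest value of each of these 3 genes, as it did for Il2rb and Zbtb16. Not all markers of NKT and innate lymphoid cells shared this. Eomes was highest in GFP-positive library 2 among GFP-positive libraries (0.0925 FPKM). Tbx21 and Il1rl1 were highest in library 3 among GFP-negative libraries (0.601 and 0.0233 FPKM). Areg was listed at 0 in all GFP-negative libraries. Ncr1, which defines natural killer cells, was at 0.08 FPKM in GFP-positive library 1 and listed at 0 in the other 5.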
